A study of Saccharomyces cerevisiae with 3 samples.

Results

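The 36 genes described here encode the enzymes and regulators that keep thiols reduced and remove peroxides and superoxide in Saccharomyces cerevisiae. They were chosen by name, as spots whose gene symbol in the platform annotation is one of 36 listed symbols, and they are 36 of 5543 named genes on the array. Each has 2 spots, 72 in all. Of the 36 genes, 31 had a value on all 3 arrays, against 3579 of all named genes.

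Each of 3 two-colour arrays set RNA from a War1K762R culture against RNA from a War1 culture, and the submitters describe the arrays as biological repeats. Both cultures were W303 yeast (W303-1A, where the labels give the full name) with WAR1 driven by the Gal1 promoter, as War1 in one and as War1K762R in the other. War1 is a zinc cluster transcription factor known for inducing the transporter gene PDR12 under weak acid stress. All cultures grew at 30 °C on rich medium with 2% raffinose to an OD600 of 0.8 and were collected 1 h after 2% galactose was added, with no acid, peroxide or other oxidant named in the labels. The labels do not say whether the chromosomal WAR1 gene was present. War1K762R carried Cy5 on replicates 1 and 2 and Cy3 on replicate 3, the dye swap. All values are log2 ratios of War1K762R over War1 on arrays centred at the median of their spots, and errors are SD between arrays with n = 3. The direction is likely and not certain: it was read from the dye labels under the assumption, stated in no label, that the scanner divided Cy5 by Cy3. Were it the other way round, every sign would turn. On this scale WAR1 itself had 0.74, 0.12 and 0.19 in replicates 1, 2 and 3, and PDR12 had 1.41, 0.95 and 0.52.

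Yeast handles oxidants with a pair of NADPH-fed thiol systems. In one, thioredoxin reductase reduces thioredoxin, which in turn reduces peroxiredoxins, methionine sulfoxide reductase and ribonucleotide reductase. In the other, glutathione, kept reduced by glutathione reductase, serves glutaredoxins and glutathione transferases. Superoxide dismutases turn superoxide into hydrogen peroxide, and catalases, peroxiredoxins and cytochrome c peroxidase remove the peroxide. The transcription factors Yap1 and Skn7 induce many of these genes when oxidants rise. Several members are close paralogs (TRX1 and TRX2, TRR1 and TRR2, TSA1 and TSA2, GRX1 and GRX2, GRX3 and GRX4), and cross-hybridisation between them was not tested.

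No redox defence gene passed as different between the strains. Of the 31 members measured on all 3 arrays, 0 passed the test of the mean ratio against 0 at an adjusted p of 0.05 (limma, Benjamini-Hochberg over 3579 genes), where 0.363% of all genes tested did. The lowest adjusted p of a member was 0.221, for SKN7. At an unadjusted p under 0.05, 4 members lay higher with War1K762R (TRR1, TRR2, GSH1 and SKN7), or 12.9% against 11.1% of all genes tested. GRX7 was the 1 member that lay lower at that threshold, or 3.23% against 2.68%. Both shares are close to those of the whole array. Mean log2 ratios ran from −0.29 for GRX7 to 0.43 for TRR1, with a median of 0.076 against 0.049 for all genes tested. The members varied more between arrays than a typical gene did, with a median SD of 0.26 against 0.20 on the log2 scale.

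**Figure D1:**
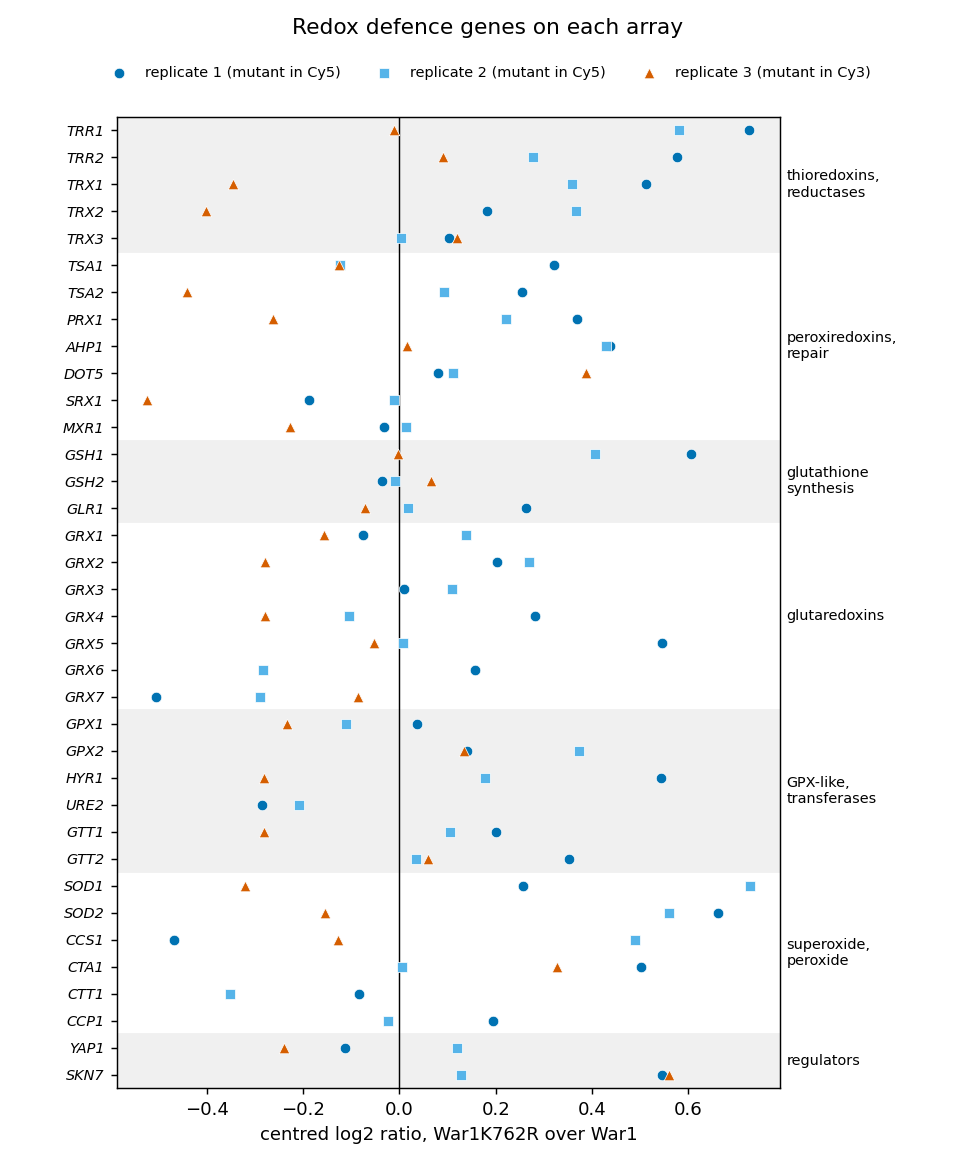
Centred log2 ratio of War1K762R over War1 (horizontal axis) for each of the 36 redox defence genes, 1 symbol per array, ordered by role. On replicate 3, where the mutant was in Cy3, most symbols lie to the left of those of replicates 1 and 2; 5 genes have no symbol for replicate 3.

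All 5 thioredoxin and thioredoxin reductase genes lay above 0 on replicates 1 and 2, as did 21 of the 31 members and 1479 of 3579 genes tested. TRX3 did so by 0.0032 on replicate 2. TRR1 (YDR353W), the cytosolic thioredoxin reductase gene, had log2 ratios of 0.73, 0.58 and −0.011 in replicates 1, 2 and 3. It was thus high on both arrays with the mutant in Cy5 and at 0 on the dye swap. Its mean was 0.43 ± 0.39, or 1.35-fold, with an unadjusted 95% interval (as for all intervals here) from 0.089 to 0.78 and an adjusted p of 0.262 (limma). TRR2 (YHR106W), the mitochondrial reductase gene, had 0.58, 0.28 and 0.090, above 0 on all 3 arrays, and a mean of 0.31 ± 0.25 (1.24-fold, adjusted p = 0.321).

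The cytosolic thioredoxin genes changed sign between the dye orientations. TRX1 (YLR043C) had 0.51, 0.36 and −0.35. TRX2 (YGR209C), whose transcript is a known Yap1 target, had 0.18, 0.37 and −0.40. In both genes the dye swap lay below 0 and the other arrays above it, so their means of 0.18 ± 0.46 and 0.049 ± 0.40 are averages of opposite signs (adjusted p = 0.662 and 0.914, limma). TRX3 (YCR083W), the mitochondrial thioredoxin gene, stayed near 0 with 0.10, 0.0032 and 0.12.

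Among peroxiredoxins and repair enzymes, AHP1 (YLR109W), a thioredoxin-dependent peroxiredoxin gene for alkyl hydroperoxides, had 0.44, 0.43 and 0.016. Replicates 1 and 2 were alike and the dye swap was near 0, with a mean of 0.29 ± 0.24 and an adjusted p of 0.362 (limma). DOT5 (YIL010W), the nuclear thiol peroxidase gene, had 0.079, 0.11 and 0.39 and was the 1 member of this role that was highest on the dye swap. SRX1 (YKL086W), for sulfiredoxin, which reactivates over-oxidised peroxiredoxins, had −0.19, −0.011 and −0.52, below 0 on all 3 arrays (mean −0.24 ± 0.26, adjusted p = 0.449). The remaining genes of this role, TSA1, TSA2, PRX1 and MXR1, had means between −0.082 for MXR1 and 0.11 for PRX1.

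In the glutathione pathway the largest ratio was at its first step. GSH1 (YJL101C), which encodes gamma-glutamylcysteine synthetase, the rate-limiting enzyme of glutathione synthesis, had 0.61, 0.41 and −0.0026. As with TRR1, replicates 1 and 2 were high and the dye swap was at 0. The mean was 0.34 ± 0.31, or 1.26-fold, with a 95% interval from 0.021 to 0.65 and an adjusted p of 0.321 (limma). GSH2 (YOL049W), for glutathione synthetase, the next enzyme of the pathway, had a mean of 0.0070 ± 0.052, the smallest spread among the 31 members. GLR1 (YPL091W), for glutathione reductase, had 0.26, 0.018 and −0.072, a mean that does not differ from 0 beyond its spread (0.070 ± 0.17, adjusted p = 0.833).

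Glutaredoxins are small thiol oxidoreductases that use glutathione. Of the 7 genes, 5 had a value on the dye swap and 0 of these were positive, where 1826 of 3579 genes tested were. GRX7 (YBR014C), a glutaredoxin gene of the early secretory pathway, had −0.51, −0.29 and −0.086, the lowest mean of all members (−0.29 ± 0.21, 1.23-fold lower, adjusted p = 0.347, limma). All 3 arrays lay below 0, replicate 1 furthest. GRX5 (YPL059W), of mitochondrial iron-sulfur cluster assembly, had 0.55, 0.0064 and −0.053, so that 1 array carried its mean of 0.17 ± 0.33. Without replicate 1 the mean of GRX5 was −0.023. GRX1, GRX2 and GRX4 had means from −0.034 to 0.065. GRX5 lies beside PDR12 in the reference gene order, a fact looked up after its values were seen, and PDR12 was above 0.5 on all 3 arrays while GRX5 was above 0.5 on replicate 1 alone.

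Of the glutathione peroxidase-like and transferase genes, GPX2 (YBR244W) had 0.14, 0.37 and 0.13, and GTT2 (YLL060C), a glutathione transferase gene, had 0.35, 0.0335 and 0.060. These 2 genes were above 0 on all 3 arrays, with means of 0.22 ± 0.14 and 0.15 ± 0.18 (adjusted p = 0.451 and 0.619, limma). HYR1 (YIR037W, also GPX3), whose product senses hydrogen peroxide and passes the signal to Yap1, had 0.54, 0.18 and −0.28, with the dye swap again on the other side of 0. GPX1 and GTT1 had means of −0.10 and 0.0071.

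Both superoxide dismutase genes stood far apart between the dye orientations. SOD2 (YHR008C), the mitochondrial manganese enzyme, had 0.66, 0.56 and −0.15. SOD1 (YJR104C), the copper and zinc enzyme, had 0.26, 0.73 and −0.32. Both were high on replicates 1 and 2 and below 0 on the dye swap, with means of 0.36 ± 0.45 and 0.22 ± 0.53 (adjusted p = 0.364 and 0.605, limma). The mean of replicates 1 and 2 exceeded replicate 3 by 0.82 for SOD1, the widest such gap among the members, by 0.78 for TRX1 and by 0.77 for SOD2. CTA1 (YDR256C), for the peroxisomal catalase A, behaved otherwise, with 0.50, 0.0058 and 0.33, a mean of 0.28 ± 0.25 and an adjusted p of 0.387. CCS1 (YMR038C), for the copper chaperone of Sod1, had −0.47, 0.49 and −0.13, a spread that covers 0 in both directions.

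Neither of the 2 regulators passed the test. SKN7 (YHR206W) had 0.55, 0.13 and 0.56, above 0 on all 3 arrays, with a mean of 0.41 ± 0.25 (1.33-fold, 95% interval from 0.12 to 0.71, adjusted p = 0.221, limma). On replicate 3 the value of SKN7 came from 1 of its 2 spots. YAP1 (YML007W) had −0.11, 0.12 and −0.24, a mean of −0.078 ± 0.18 and an adjusted p of 0.816. The transcript of YAP1 is a partial measure of its activity, since oxidants are known to act on the localisation of the protein.

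**Figure D2:**
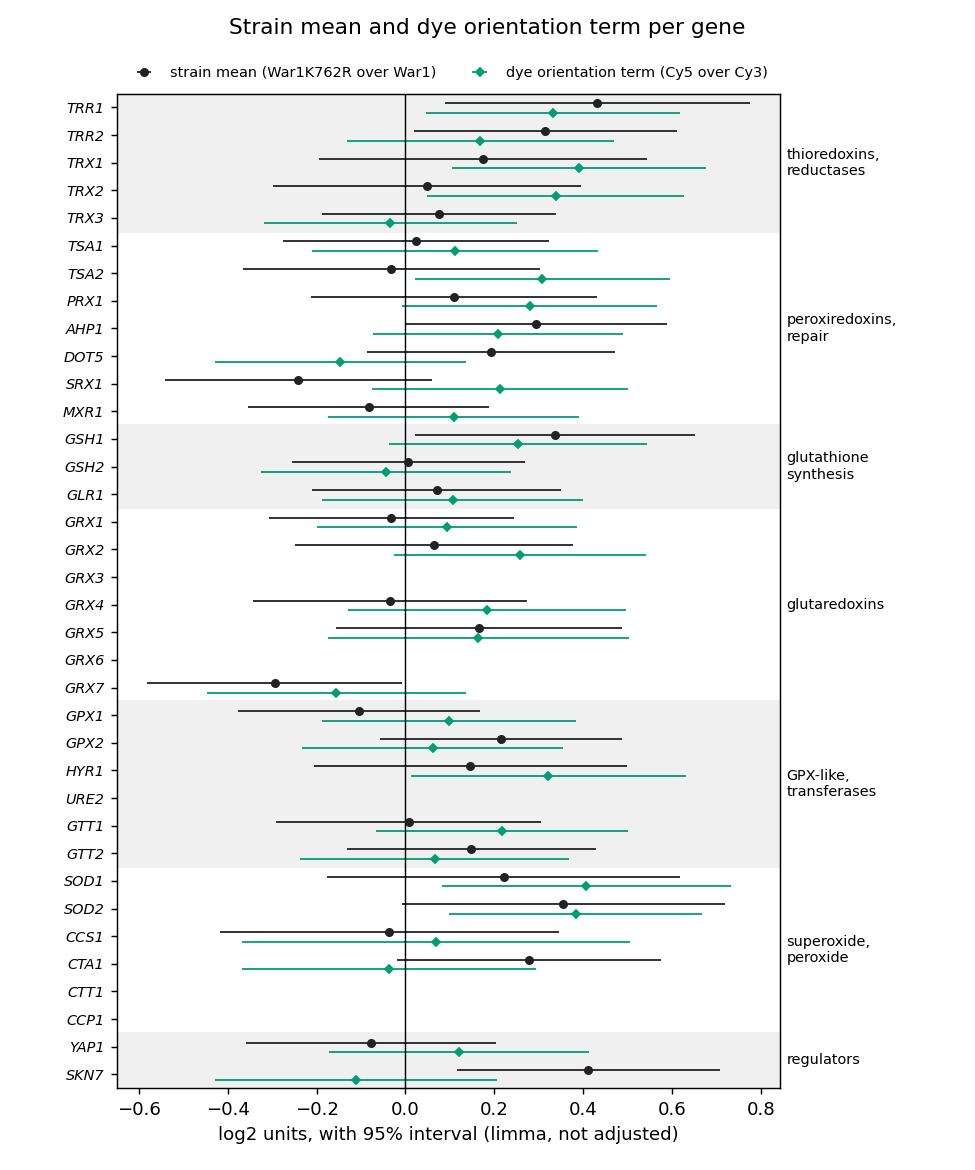
Mean log2 ratio of War1K762R over War1 (black circles) and dye orientation term (green diamonds) of the 31 genes measured on all 3 arrays, with unadjusted 95% intervals from limma; log2 units. TRR1, TRR2, GSH1 and SKN7 have strain intervals above 0 and GRX7 has one below 0, while 7 genes have dye intervals above 0; 0 of either kind passed after adjustment.

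The dye swap asks whether a ratio follows the strain or the dye. A strain difference keeps its sign in these values when the dyes are exchanged. Of the 31 members, 8 were above 0 on all 3 arrays (TRR2, TRX3, AHP1, DOT5, GPX2, GTT2, CTA1 and SKN7), or 25.8% against 24.7% of all genes tested. SRX1 and GRX7 were the 2 members below 0 on all 3, or 6.45% against 13.5%. These are signs of gene means. In TRR2, TRX3, AHP1, DOT5, GTT2, CTA1, SRX1 and GRX7 the 2 spots lay on both sides of 0 on an array. Those of TRR2 on replicate 3, for example, read 0.18 and −0.0016. GPX2 had both spots above 0 on every array. Another 13 members were above 0 on replicates 1 and 2 and below 0 on replicate 3, or 41.9% against 16.6% of all genes tested. These were TRR1, TRX1, TRX2, TSA2, PRX1, GSH1, GLR1, GRX2, GRX5, HYR1, GTT1, SOD1 and SOD2. Here too some genes had spots on both sides of 0, such as GSH1 with −0.092 and 0.087 on replicate 3. In these 13 genes the centred ratio of Cy5 over Cy3 was above 0 on all 3 arrays, whichever strain was in Cy5. The reverse pattern held for GSH2 alone, or 3.23% against 8.49%. Replicate 3 was the lowest of the 3 arrays for 23 members, or 74.2% against 44.1% of all genes tested.

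**Figure D3:**
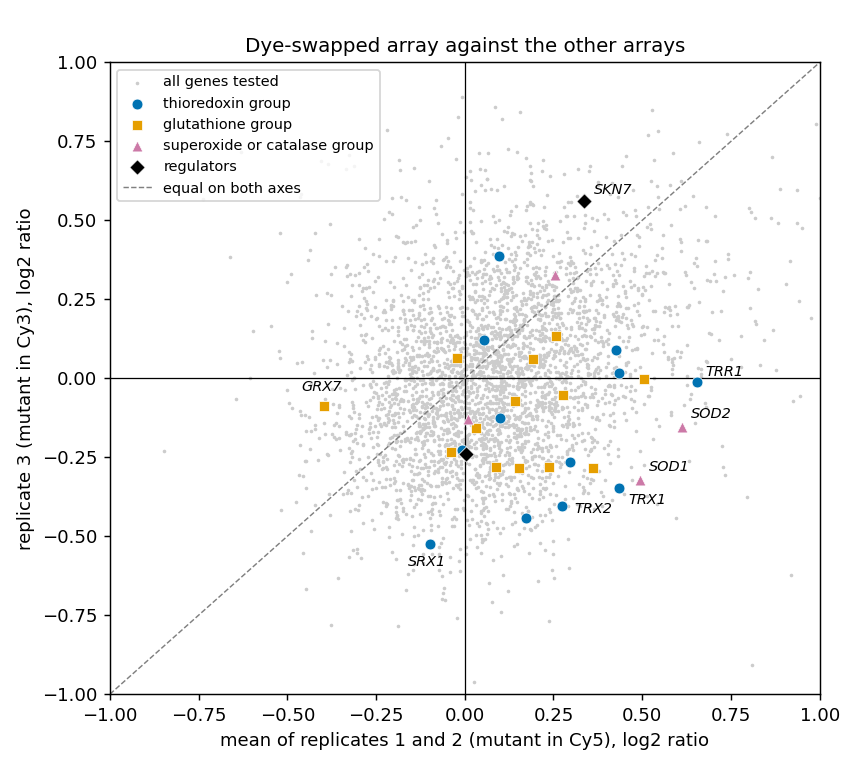
Log2 ratio on the dye-swapped replicate 3 (vertical axis) against the mean of replicates 1 and 2 (horizontal axis) for all 3579 genes tested (grey; 19 lie outside the axes) and the 31 redox defence genes (coloured by group). Most coloured points lie below the dashed line of equal values, with TRX1, TRX2, SOD1 and SOD2 in the lower right quadrant and SKN7 above the line.

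A dye orientation term was fitted across all genes as 0.5 times the difference between the mean of replicates 1 and 2 and replicate 3. A positive term thus means a higher ratio on replicates 1 and 2 than on replicate 3. It need not mean that Cy5 exceeded Cy3 in both orientations. TRR2, for example, had a term of 0.17 and a log2 ratio of Cy5 over Cy3 of −0.090 on replicate 3. After adjustment 0 of 31 members and 0% of all genes tested passed (limma, lowest adjusted p of a member 0.802). At an unadjusted p under 0.05 the term was positive for 7 members, or 22.6% against 3.74% of all genes tested, and negative for 0 members against 2.18%. The 7 were SOD1 at 0.41 (95% interval from 0.082 to 0.73), TRX1 at 0.39, SOD2 at 0.38, TRX2 at 0.34, TRR1 at 0.33, HYR1 at 0.32 and TSA2 at 0.31. For SOD1, TRX1, SOD2, TRX2, HYR1 and TSA2 the dye term exceeded the strain mean in size, and for TRR1 the strain mean of 0.43 was the larger. These strain means come from the fit without a dye term. In the fit with a dye term the strain coefficient of TRR1 was 0.32, beside its dye term of 0.33. In all, 25 of the 31 members had a positive term, or 80.6% against 61.4% of all genes tested, with a median of 0.16 against 0.044 for all genes tested. The term rests on 1 array in the swapped orientation. Dye, culture and any other feature of replicate 3 cannot be told apart.

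By correlation across these genes, the dye swap shared little with replicate 2. Across the 31 members replicates 1 and 2 correlated with Pearson's r of 0.371 and replicates 1 and 3 with 0.221, whereas replicates 2 and 3 had −0.072. Across all genes tested the same pairs had 0.311, 0.179 and 0.252. The points are genes of the same arrays and not independent replicates.

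Without the dye swap, all 36 members could be tested on replicates 1 and 2. Again 0 passed after adjustment, where 1.46% of 5475 genes did (limma). The lowest adjusted p was 0.0593, for TRR1, with a mean of 0.65 over the 2 arrays, followed by SOD2 at 0.61 (adjusted p = 0.0708). At an unadjusted p under 0.05, 8 members were higher (TRR1, TRR2, TRX1, AHP1, GSH1, HYR1, SOD1 and SOD2), or 22.2% against 9.39% of genes, and 1 was lower (GRX7), or 2.78% against 7.84%. Both arrays had the mutant in Cy5, so strain and dye cannot be told apart in this pair. No member was at least 1.5-fold from 0 on one side on both arrays, where 96 of 5475 genes were.

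The 5 members with no value on replicate 3 were GRX3, GRX6, URE2, CTT1 and CCP1, or 13.9% of 36 against 34.6% of all genes measured on the other arrays. URE2 (YNL229C), a glutathione transferase-like protein best known as a nitrogen regulator and prion, had −0.29 and −0.21 in replicates 1 and 2. CTT1 (YGR088W), the cytosolic catalase T gene that responds to general stress, had −0.085 and −0.35. These 2 genes were below 0 on both arrays. CCP1 (YKR066C), for mitochondrial cytochrome c peroxidase, had 0.19 and −0.024, GRX6 0.16 and −0.28, and GRX3 0.0095 and 0.11, all within the range of the other members.

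By system, among genes measured on all 3 arrays, the superoxide or catalase genes had the highest medians on replicates 1 and 2. The thioredoxin genes had the lowest median on the dye swap. For the 12 thioredoxin-linked genes (thioredoxins, reductases, peroxiredoxins and repair) the median log2 ratio was 0.29, 0.17 and −0.18 in replicates 1, 2 and 3. The 13 measured glutathione-linked genes had 0.20, 0.034 and −0.086. GPX1, GPX2 and HYR1 were counted among these as glutathione peroxidase-like by name, not by a shown use of glutathione. The 4 measured superoxide or catalase genes had 0.38, 0.53 and −0.14, where the medians of all genes tested were 0.071, 0.057 and 0.0055. All 3 systems thus lay above 0 on replicates 1 and 2 and below 0 on the dye swap. The superoxide or catalase medians leave out CTT1 (−0.085 and −0.35 on replicates 1 and 2) and CCP1 (0.19 and −0.024). With both included where measured, the mean over arrays of that system's medians fell from 0.25 to 0.11. Its median was then no longer the highest on replicate 1. Differences between systems were no larger than their spread over arrays. Thioredoxin minus glutathione medians averaged 0.042 ± 0.12, thioredoxin minus superoxide or catalase −0.16 ± 0.17, and glutathione minus superoxide or catalase −0.20 ± 0.27 (SD, n = 3 arrays each). With 3 arrays no test of these differences was run.

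**Figure D4:**
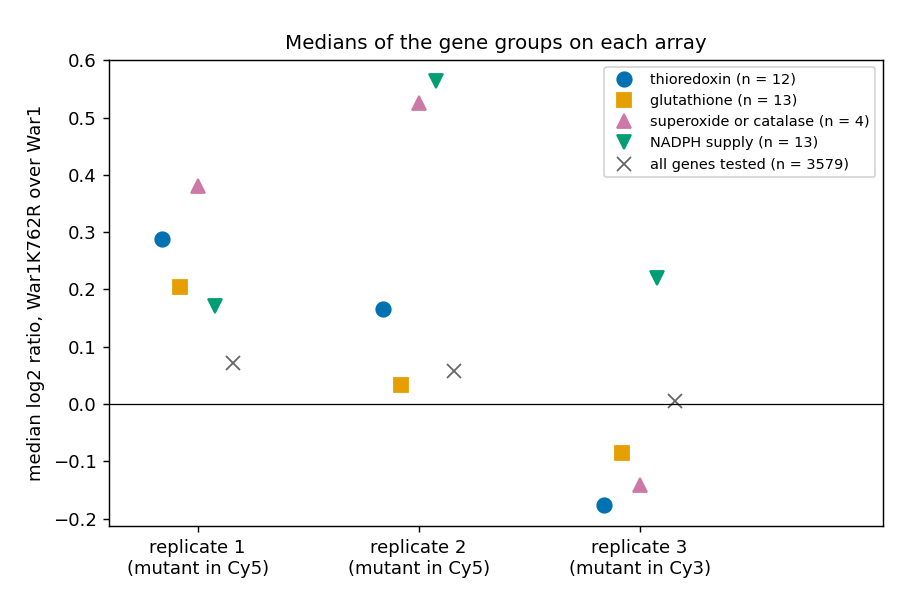
Median log2 ratio of War1K762R over War1 (vertical axis) of each gene group on each array (horizontal axis), 1 symbol per group, with the number of genes in the legend. The 3 redox systems lie below 0 on replicate 3 alone, at −0.18, −0.086 and −0.14. The median of the 13 genes labelled NADPH supply, some of which do not make NADPH, lies above 0 on all 3 arrays, as does that of all genes tested.

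Thioredoxin reductase and glutathione reductase both draw on NADPH, so a list of genes around its supply and the pentose phosphate pathway is given beside the members. The list is not limited to enzymes that make NADPH. It also holds TAL1, TKL1, TKL2 and ADH6, whose products do not make it. The 13 measured genes of NADPH supply and the pentose phosphate pathway had medians of 0.17, 0.56 and 0.22 in replicates 1, 2 and 3. On the dye swap 8 of the 13 were above 0, against 9 of the 31 members and 1826 of the 3579 genes tested. These differences were not tested. The list was chosen with earlier results of these data known, so its count of calls is a description only. Of the 13, 1 rose and 0 fell (adjusted over all genes tested), where 0.363% of all genes tested passed in either direction. That gene was TAL1, for transaldolase, with 0.98, 0.89 and 0.49 and a mean of 0.79 ± 0.26 (1.73-fold, adjusted p = 0.0461, limma). The call of TAL1 was kept in 7 of 12 other settings and ended in 5, namely on first spots alone (adjusted p = 0.0911), with the arrays centred on the genes tested (0.102), with a dye term (0.114), without replicate 1 (0.194) and with replicate 3 turned (0.902). IDP1, for mitochondrial NADP-dependent isocitrate dehydrogenase, had 0.74, 0.87 and 0.22 (mean 0.61 ± 0.34, adjusted p = 0.117). GND1, for 6-phosphogluconate dehydrogenase, and ALD6, for cytosolic aldehyde dehydrogenase, were also positive on all 3 arrays, with means of 0.41 ± 0.36 and 0.30 ± 0.11, and did not pass (adjusted p = 0.270 and 0.308). The lowest mean of the 13 was that of IDP2, for cytosolic NADP-dependent isocitrate dehydrogenase, named after its values were seen, with 0.092, −0.73 and −0.36 (mean −0.34 ± 0.41, adjusted p = 0.379).

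Among 23 measured genes of a list of other Yap1 targets and redox proteins, 0 passed either test (limma), and 1, ECM38, for gamma-glutamyltranspeptidase of glutathione breakdown, was higher at an unadjusted p under 0.05 (0.32, 0.65 and 0.096 on the arrays, adjusted p = 0.290), where 11.1% of all genes tested were. Their medians were 0.026, 0.13 and −0.064. The metallothionein genes CUP1-1 and CUP1-2, near-identical copies that a spot cannot tell apart, had −0.64 and −0.40 on the dye swap and positive ratios on the other arrays, with dye terms of 0.42 and 0.33 (unadjusted p = 0.0119 and 0.0393, adjusted p = 0.802 for both). Of 4 further regulators measured on all 3 arrays, 0 passed, and MSN4, of the general stress response, had 0.65, 0.055 and 0.35 (mean 0.35 ± 0.30, adjusted p = 0.306). MSN2, CAD1 and CIN5 had no value on replicate 3. On replicates 1 and 2, both with the mutant in Cy5, MSN2 had 0.67 and 0.45 (adjusted p = 0.111, limma on these arrays). CAD1 had −0.23 and −0.038, and CIN5 had 0.070 and −0.54.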

How the data were processed

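Per the labels' protocols, total RNA (20 µg a sample, hot phenol) was reverse transcribed with Cy3 or Cy5 nucleotides. The values deposited by the authors are log2 ratios, 1 for each spot of an array. For scanning, spot filter and normalization the method is not stated in the labels. Intensities were not used. The number of arrays limits the precision. Values existed for 12277, 12112 and 7367 of 13056 spots. Below 0.5 in size, 2 to the power of the value had 3 decimals for 100% of values of replicates 1 and 2, and of replicate 3 after a change of sign (9.95% before it), so replicate 3 was taken as inverted before deposit and no column was turned. A treatment text naming the mutant in the Cy3 channel of replicates 1 and 2 contradicts the source names and was not used.

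Spots were matched to genes through the platform annotation (11146 with 1 symbol, 1910 with none); the R64 reference table held all 36 members and gave neighbours only. Arrays were centred on the median of all spots, spots of a gene averaged, and 3579 genes fitted with limma 3.58.1 (R 4.3.3, lmFit and eBayes, two-sided) and Benjamini-Hochberg adjustment. The fits were tested on simulated data with effects larger than any mean or dye term of a member, so effects of the size reported here were not covered. Role groups are described by counts and medians. Members and lists were chosen with earlier results of these data known. Values per array were given for members past a test, on one side of 0 on all 3 arrays, among the 2 largest means of a role or the 6 largest dye terms. A planned motif search was not run because no promoter sequences were used here. Of 49 related genes listed, 40 had values on all 3 arrays.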

Additional observations from a re-analysis of the deposited data

How the results depend on the processing

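In 12 other settings of the strain test and 4 of the dye term, 0 members passed after adjustment; their lowest adjusted p were 0.0593 (TRR1, without replicate 3) and 0.723 (PRX1, first spots alone), both limma. The 4 members higher at an unadjusted p under 0.05 became 0 to 8 when 1 replicate was left out (0 without replicate 1, 2 without replicate 2, 8 without replicate 3, also on the same genes) and 2 with a dye term, with centring on the genes tested and without centring. The 1 lower member became 0 to 1 when a replicate was left out and 0 with replicate 3 turned, without centring and on first spots. The 13 genes called on the whole array became 2 to 80 when a replicate was left out (2, 30 and 80 without replicates 1, 2 and 3), 3 with a dye term, 0 with replicate 3 turned (limma, 145 at an unadjusted p under 0.05), 4 with centring on the genes tested, 26 without centring, 4 on first spots, 117 on at least 2 arrays and 25 with array weights. The 7 positive dye terms became 0 without centring, where array offsets enter the term, and first spots alone called 3 genes of the array for dye, 0 of them members. Of 238 recomputed strain means of the 20 described members, 13 changed sign: TRX2 without replicate 1 (−0.018), without replicate 2 (−0.11) and with a dye term (−0.064); GLR1, GRX5 and HYR1 without replicate 1 (−0.027, −0.023 and −0.053); SOD1 without replicate 2 (−0.032); YAP1 without replicate 3 (0.0031, also on the same genes) and with replicate 3 turned (0.082); and TRX3 (−0.0046), DOT5 (−0.066) and SRX1 (0.11) with replicate 3 turned. With 1 replicate left out, the means of TRX2, GLR1, GRX5, HYR1 and SOD1 reached 0.27, 0.14, 0.28, 0.36 and 0.49 (without replicate 3), and that of YAP1 −0.18 (without replicate 2). The dye terms of the 6 members with the largest ones kept their sign in all 36 recomputed values. In 17 of the 20 described members the mean moved by over 1.5 times or changed sign when 1 replicate was left out, and in TRX3, AHP1 and SKN7 it did not. TRX1, for example, ran from 0.0063 (without replicate 1) to 0.44 (without replicate 3), SOD2 from 0.20 to 0.61, GTT2 from 0.047 to 0.21, DOT5 from 0.095 to 0.25 and SRX1 from −0.36 to −0.099. The medians of the 3 systems moved by less than their SD over arrays (0.24, 0.15 and 0.35 for thioredoxin, glutathione and superoxide or catalase), which exceeds each mean. When 1 of 3 arrays is left out, the mean always moves by less than that SD. For those settings this outcome was therefore fixed in advance and is no sign of stability. Their mean over arrays was 0.093 for thioredoxin and 0.050 for glutathione. It became −0.0051 and −0.026 without replicate 1, and 0.23 and 0.12 without replicate 3. That of superoxide or catalase, 0.25, ran from 0.12 to 0.45 with 1 replicate left out. It was 0.11 with all members measured on each array, CTT1 and CCP1 included. The glutathione gap between replicates 1 and 2 and replicate 3 was 0.20 and became 0.061 without centring. Leaving out replicates 1 or 2 gives dye terms with no test, and leaving out replicate 3 gives none. Apart from the changes of sign and call named here, the cause of a difference between settings was not tested.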

Other observations

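The 2 spots of a member agreed more closely on replicate 1 than on the dye swap. The SD of a single spot among members was 0.076, 0.12 and 0.15 on the log2 scale in replicates 1, 2 and 3, against 0.12, 0.17 and 0.14 over all genes with 2 spots. The largest gap of a member, 0.61, was between the spots of TRX2 on replicate 3, at −0.098 and −0.71, both below 0. PRX1 had spots of −0.49 and −0.035 on that array, and SKN7 had 0.34 and 0.75 on replicate 1. The spots of TRX1 on replicate 3 read −0.34 and −0.35, and those of SOD1 −0.28 and −0.36. The neighbouring genes HYR1 and GTT1, which follow each other in the reference gene order, both had −0.28 on replicate 3, while on replicate 1 they had 0.54 and 0.20.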
